A study of Danio rerio with 28 samples.

Results

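The cytosolic ribosomal protein genes were followed in whole zebrafish embryos of the AB strain over the first 6 hours post fertilisation (hpf). A gene was taken as a member when its symbol was rpl or rps with a number, or one of the stalk and laminin-receptor names such as rplp0 or rpsa, and ribosomal S6 kinases were left out. This gave 69 of the 33737 Ensembl gene IDs, with 66 symbols, of which 38 belong to the large and 31 to the small ribosomal subunit. Symbols are printed as the reference table spells them, and RPL5 and RPS26 stand for a pair of IDs each, told apart here by the ID.

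Poly(A)-selected RNA was sequenced from embryos injected with a morpholino (MO, an antisense oligonucleotide) against ybx1 at 3, 4 and 6 hpf, from pabpc1a MO embryos at 4 and 6 hpf, and from wild-type (WT) embryos at 0, 2, 3, 4 and 6 hpf. RNA depleted of ribosomal RNA (rRNA) was sequenced from embryos treated as zygotes with 0.2 ng of alpha-amanitin, an inhibitor of RNA polymerase II, at 2, 4 and 6 hpf, and from WT embryos at 4 hpf. Each of these 14 groups has 2 libraries. No group is labelled as injected with a control morpholino. Libraries titled MO with no target are read as ybx1 MO, which is the morpholino that the design text names. Separate biological replicates are stated only for the amanitin series, collected as pools of embryos, so elsewhere a p-value measures the spread between libraries that may be technical.

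A ribosome joins a large and a small subunit, each an rRNA core dressed with many proteins, most of them needed in equal numbers. In vertebrates most of these proteins are encoded by mRNAs that begin with a terminal oligopyrimidine tract, through which their translation follows mTOR signalling as a set. The egg supplies both ribosomes and ribosomal protein mRNAs, and the embryo's own transcription starts in earnest after a run of rapid cleavages. Ybx1 is an mRNA-binding cold-shock-domain protein and Pabpc1a is a cytoplasmic poly(A)-binding protein, so both bind the mRNAs that the egg supplies.

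Total counts were 48204100 to 100000375 in the 20 poly(A) libraries and 39882963 to 66381933 in the 8 rRNA-depleted libraries. In the poly(A) libraries 1 gene, ENSDARG00000080337, which the reference table does not name, took 22.2% to 46.1% of the counts, against 0.613% to 2.00% for the top gene of the rRNA-depleted libraries. The pair of WT poly(A) libraries at 4 hpf stood apart: 2-fold or larger differences were found for 5203 genes there, and for 1209 to 3571 genes in each remaining poly(A) pair. In that pair 67 of the 69 ribosomal protein genes were higher in replicate 1, by a median of 0.57 on the log2 scale. Both pabpc1a MO pairs leaned the same way. At 4 hpf 65 of 69 were higher in replicate 1 (median 0.15), and at 6 hpf 66 (median 0.24). In the remaining poly(A) pairs 31 to 49 were higher in replicate 1. The mRNA of a morpholino's target need not change and so does not check the labels: pabpc1a had 484 and 510 CPM (counts normalised to the scaled library total) in pabpc1a MO embryos at 4 hpf, against 864 and 627 CPM in WT. Zygotic marker mRNAs do bear on the amanitin label, and 8 of 8 were higher in WT than in amanitin-treated embryos at 4 hpf, while within the treated series 7 of 8 were higher at 4 than at 2 hpf.

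Through WT development the ribosomal protein mRNAs moved as a set: they fell in the first 2 hours, were lowest at 3 hpf, rose by 4 hpf and stood above their 0 hpf level at 6 hpf. As a share of all counts the family made up 0.733% and 0.706% at 0 hpf, 0.456% and 0.436% at 3 hpf, and 1.77% and 1.51% at 6 hpf. The common course, taken as the median over the 69 genes of log2 CPM after each gene is centred on its own mean over the 10 poly(A) groups, was 0.26 at 0 hpf, -0.89 at 2 hpf, -1.22 at 3 hpf, -0.40 at 4 hpf and 1.56 at 6 hpf. RPL9, a large subunit protein, shows the pattern: it had 163 and 164 CPM at 0 hpf, 74.6 and 76.2 CPM at 2 hpf, 63.0 and 62.2 CPM at 3 hpf, 125 and 90.8 CPM at 4 hpf, and 385 and 368 CPM at 6 hpf. The 5 stages of RPL9 did not overlap in any library. A CPM is a share of one library, so fewer cells with an mRNA and less of it per cell cannot be told apart, nor can its loss from a gain of other RNAs. In poly(A)-selected libraries, of WT and MO embryos alike, a change in an mRNA's amount cannot be told from a change in its capture by the selection.

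**Figure D1:**
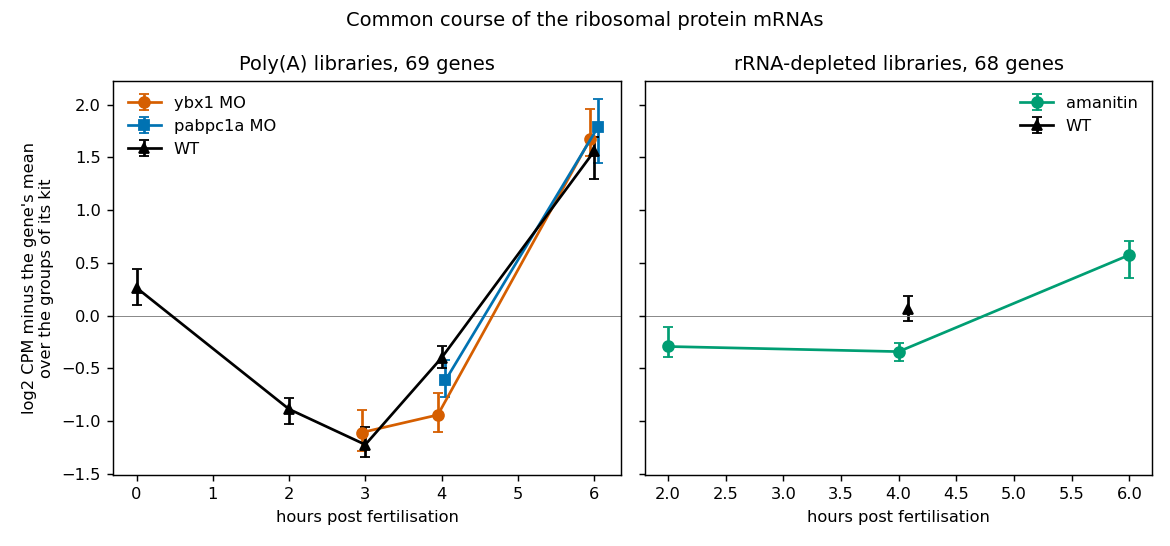
Median over the ribosomal protein genes of log2 CPM centred on each gene's mean over the groups of its kit (y axis) against hours post fertilisation (x axis), for the poly(A) groups on the left and the rRNA-depleted groups on the right; bars run from the lower to the upper quartile of the genes. The WT course falls to -1.22 at 3 hpf and reaches 1.56 at 6 hpf, the ybx1 MO course is at -1.11 and -0.94 at 3 and 4 hpf, and the amanitin course reaches 0.58 at 6 hpf.

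Between 0 and 2 hpf 65 of the 69 genes fell and none rose (edgeR's quasi-likelihood test, adjusted p under 0.05), against 16.8% of all 22377 genes tested that fell. Their median log2 fold change, 2 over 0 hpf, was -1.20, and the median of all genes was 0.03. Between 2 and 3 hpf RPLP1, a stalk protein that helps recruit elongation factors, was the 1 member that passed in the fit of all groups, at -0.81 ± 0.18 (log2, SE) and adjusted p = 0.0166 in edgeR, where 1.3% of all genes fell. The median at this step was -0.29, and 29 members had an unadjusted p under 0.05. DESeq2 called 4 lower, a filter at 10 CPM 6, and a fit of the WT 2 and 3 hpf libraries alone 42. The shares of all genes called in these alternative fits are not given. RPLP1 no longer passed when either WT 2 hpf library or WT 3 hpf replicate 2 was left out.

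From 3 to 4 hpf 68 of 69 genes rose, against 17.1% of all genes, with a median of 0.83 on the log2 scale, and from 4 to 6 hpf 67 rose, against 27.9% of all genes, with a median of 1.91. With a fit of the WT 3 and 4 hpf libraries alone, no member passed at the step to 4 hpf, although without WT 4 hpf replicate 1 it was 51. Large and small subunit genes moved together, with medians of 1.92 and 1.89 at the last step and -1.15 and -1.24 at the first.

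How closely each gene kept to the common course was measured by Pearson's correlation over the 10 poly(A) groups, as a description. The median r over the 69 genes was 0.992 and 67 genes had an r of at least 0.9. RPL29 was below, with r = 0.707. Above it came rps11l (0.905), which had 0 to 14 reads per library, RPL12 (0.912), RPL4 (0.938) and RPS15 (0.953). RPL21 had r = 0.956. Over the 4 rRNA-depleted groups, with the course of that kit, the median r was 0.971 and 52 of 68 members had an r of at least 0.9. In all, 17 of the 69 genes lay more than 1 log2 unit from the median of the family in at least 1 of the 15 comparisons of 2 groups, and 52 in none.

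**Figure D2:**
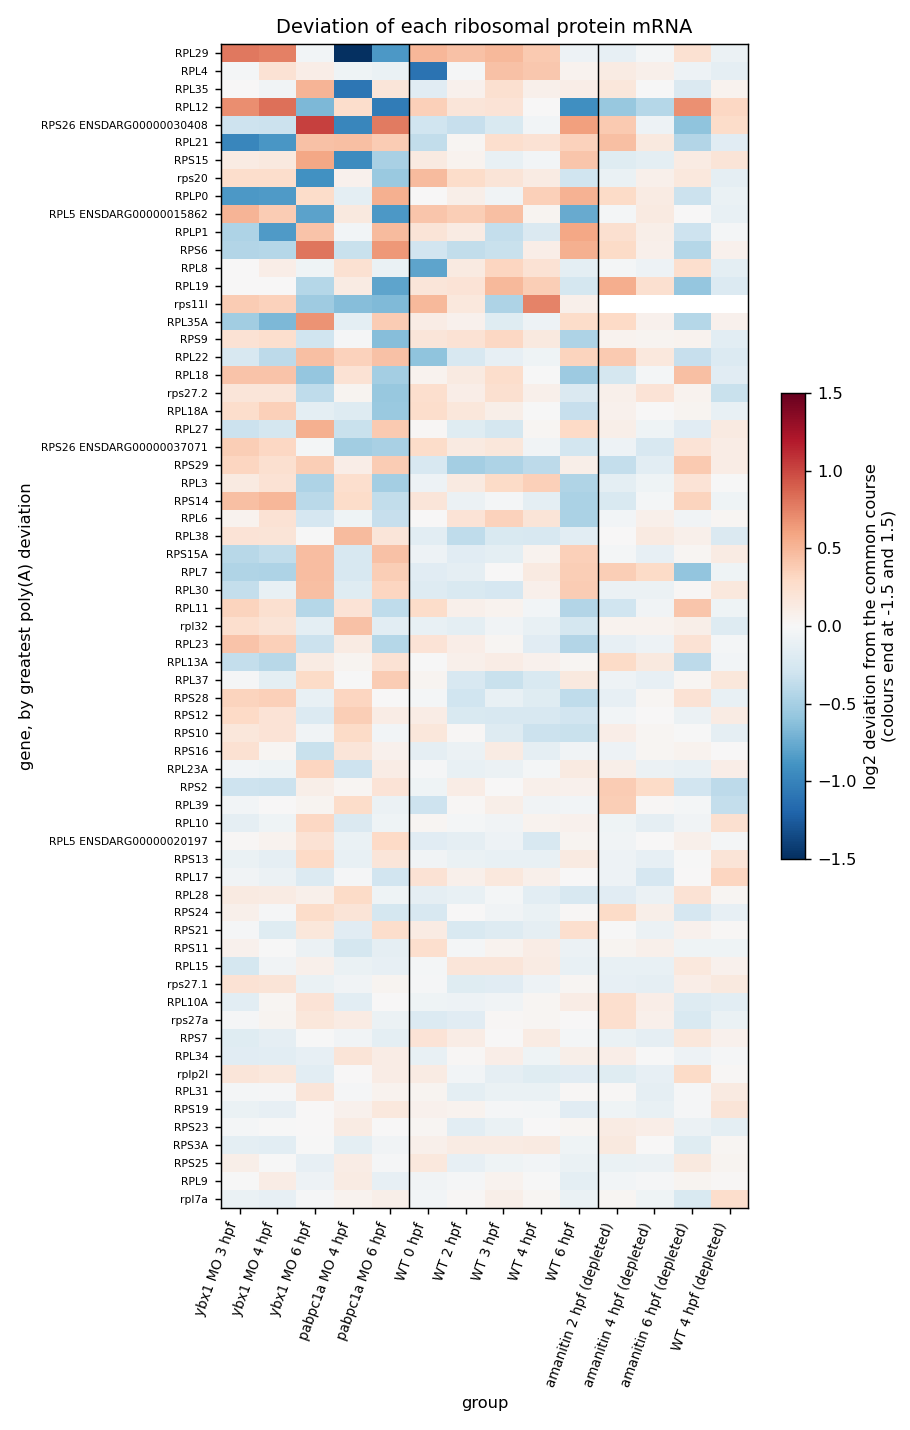
Deviation of the ribosomal protein mRNAs reported here (rows, ordered by the greatest deviation in a poly(A) group) from the common course of the kit in each of the 14 groups (columns), in log2 units, with red above and blue below the course; white marks rps11l, which was not tested in the rRNA-depleted libraries. RPL29 in pabpc1a MO embryos at 4 hpf lies 2.50 below the course. An r of at least 0.9 with the course was found for 67 of the 69 genes over the poly(A) groups. Over the rRNA-depleted groups it was found for 52 of 68.

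RPL4 and RPL8, which lie in the large subunit near the peptide exit tunnel and the catalytic centre, were the members with over 100 reads in every library that did not pass the test for the early fall. RPL4 had 112 and 104 CPM at 2 hpf, against 105 and 121 CPM at 0 hpf, and its log2 fold change was -0.06 ± 0.16 (SE, edgeR adjusted p = 0.856). RPL8 had 86.5 and 73.5 CPM at 2 hpf, against 86.2 and 99.7 CPM at 0 hpf, a log2 fold change of -0.22 ± 0.15 (SE, edgeR adjusted p = 0.296). Both pairs of stages overlapped. RPL21 fell, but by only 0.76 on the log2 scale, and did not pass (-0.33) when libraries were scaled by their total without the most abundant gene.

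In the late rise RPL12, which sits at the base of the stalk, rose least of the 67 members called. It had 633 and 685 CPM at 6 hpf, against 364 and 287 CPM at 4 hpf, and so returned to near its 0 hpf values of 623 and 686 CPM. Its log2 fold change of 1.02 ± 0.15 (SE, edgeR adjusted p = 1.67e-05) compares with 2.71 for RPLP1 and 2.40 for RPS15, a protein of the head of the small subunit. RPS15 had 278 and 230 CPM at 6 hpf, against 58.1 and 38.4 CPM at 4 hpf, groups that did not overlap.

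In ybx1 MO embryos the ribosomal protein mRNAs did not pass the test for a rise between 3 and 4 hpf, were below WT at 4 hpf, and were close to WT at 6 hpf. None of the 69 genes passed edgeR's test between 4 and 3 hpf within the ybx1 MO embryos, where 7.76% of all genes did. Of the members 7 had an unadjusted p under 0.05. DESeq2 called none, a fit of the compared groups alone 4, and a fit with no filter 1. The median log2 fold change was 0.16, and 65 of the 69 changes were positive. In 55 members both 4 hpf libraries lay above both 3 hpf libraries, against 35.3% of all genes. Set against WT, 12 members were higher and 3 lower at 3 hpf, 44 were lower and none higher at 4 hpf, and 3 were higher and 1 lower at 6 hpf. The shares of all genes in those directions were 4.56% and 10.2% at 3 hpf, 19.4% lower at 4 hpf, and 11.9% and 15.6% at 6 hpf. The medians of the members were 0.09, -0.59 and 0.21, of which the first and the last turn to -0.0043 and -0.091 when libraries are scaled by their total without the most abundant gene.

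Without WT 4 hpf replicate 1, the library in which the family ran higher, 23 members were lower and 1 higher in ybx1 MO embryos at 4 hpf, with a median of -0.29. A fit of the 4 libraries of that comparison alone called 5 lower. At 3 hpf the 12 higher calls became 0 to 3 when any 1 of the 4 libraries was left out. Zygotic marker mRNAs were lower in ybx1 MO embryos in 6 of 8 at 3 hpf, 5 of 8 at 4 hpf and none of 8 at 6 hpf, and of 6 maternal markers 2, 4 and 2 were higher at these times. Of all genes, 10.2%, 19.4% and 15.6% were lower and 4.56%, 12.8% and 11.9% higher. Whether the difference in these markers has a part in that of the ribosomal protein mRNAs was not tested.

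From 4 to 6 hpf the ybx1 MO embryos rose further than WT. All 69 genes rose, against 35.2% of all genes, with a median of 2.65 on the log2 scale. Tested as a change of the ybx1 MO effect between 4 and 6 hpf, 41 members gained and none lost relative to WT, against 14.8% of all genes that gained, with a median of 0.80, or 25 members under the total without the most abundant gene. Between 3 and 4 hpf 8 members lost and none gained relative to WT, against 1.28% of all genes that lost. This count was unstable: it was 65 without WT 4 hpf replicate 2, 0 to 5 when any other of the 8 libraries was left out, 0 in a fit of the compared groups alone, 25 with a filter at 10 CPM and 35 in DESeq2. Among the 8 were RPLP1, RPS6, RPL35A, RPL7, rps27.1, RPL13A and RPL31.

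**Figure D3:**
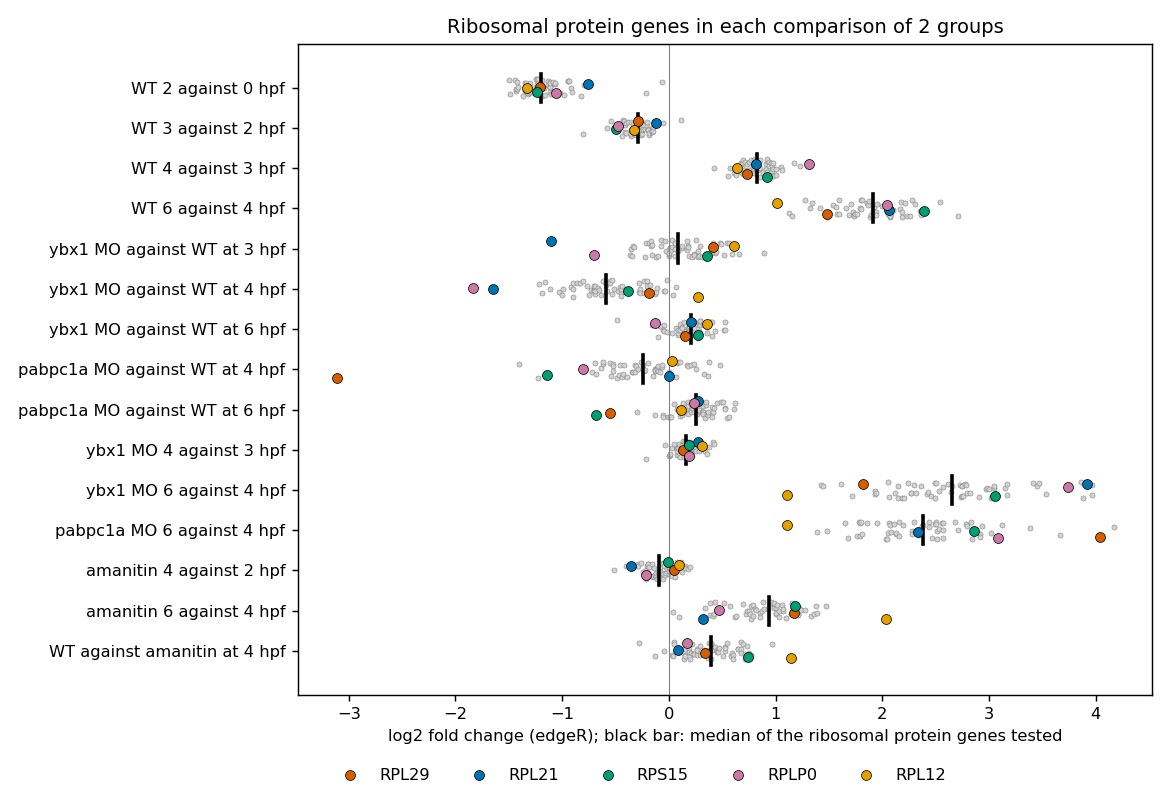
Log2 fold change (x axis) of the ribosomal protein genes reported here, rps11l aside, in the 15 comparisons of 2 groups (rows), the group named first over the other; a grey point is a gene, 5 genes are coloured, and the black bar is the median of all members tested. RPL29 lies at -3.11 in pabpc1a MO against WT at 4 hpf, and RPL21 at -1.11 and -1.65 in ybx1 MO against WT at 3 and 4 hpf.

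RPL21, a large subunit protein, left the family's course in ybx1 MO embryos at both early times. At 3 hpf it had 17.8 and 16.4 CPM in ybx1 MO embryos, against 36.1 and 37.7 CPM in WT, and at 4 hpf 20.6 and 20.7 CPM in ybx1 MO embryos, against 75.9 and 53.9 CPM in WT. The groups did not overlap at either time. The log2 fold changes were -1.11 ± 0.13 and -1.65 ± 0.13 (SE, edgeR adjusted p = 4.50e-05 and 6.35e-07), and all 11 alternatives at each time kept the call. At 6 hpf RPL21 had 311 and 316 CPM in ybx1 MO embryos, against 272 and 270 CPM in WT, which did not pass the test (log2 0.21, edgeR adjusted p = 0.240). In pabpc1a MO embryos at 4 hpf it had 66.5 and 63.0 CPM, within the WT range.

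RPLP0, the protein that anchors the stalk to the large subunit, was likewise lower in ybx1 MO embryos at both early times. It had 22.1 and 24.5 CPM in ybx1 MO embryos at 3 hpf, against 41.5 and 34.4 CPM in WT, and 25.7 and 27.1 CPM at 4 hpf, against 127 and 61.6 CPM. The groups did not overlap, but the WT pair at 4 hpf is itself about as far apart as its lower library is from the ybx1 MO embryos. The log2 fold change was -0.71 ± 0.22 at 3 hpf and -1.83 ± 0.22 at 4 hpf (SE, edgeR adjusted p = 0.0413 and 4.87e-05), and -1.22 at 4 hpf without WT replicate 1. The call at 3 hpf held in 5 of 11 alternatives and was lost when any 1 of the 4 libraries was left out (highest adjusted p = 0.225 in edgeR).

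Other members lower in ybx1 MO embryos at 4 hpf by more than 1 log2 unit were RPLP1 (-1.21), RPL35A (-1.19), RPL7 (-1.16), RPS6 (-1.12), which is phosphorylated downstream of mTOR, and RPL13A (-1.03). These sizes are limited by the spread of the WT pair at 4 hpf. The WT means were 62.9 CPM (SD 21.6) for RPLP1, 29.1 (SD 10.9) for RPL35A and 79.3 (SD 18.2) for RPL7. For RPS6 and RPL13A they were 83.2 (SD 29.8) and 103 (SD 17.4). The sizes without WT 4 hpf replicate 1 are not given for these genes. RPS29, a small zinc-binding protein of the small subunit, went the other way at 3 hpf. It had 39.9 and 41.3 CPM in ybx1 MO embryos, against 23.9 and 19.9 CPM in WT, a log2 fold change of 0.89 ± 0.18 (SE, edgeR adjusted p = 0.00425), or adjusted p = 0.0652 without WT 3 hpf replicate 2. At 4 hpf its groups overlapped and the log2 fold change was 0.04. The 3 members higher in ybx1 MO embryos at 6 hpf were RPL35, RPL35A and RPL28, at 0.53, 0.52 and 0.44. The count was 0 without either ybx1 MO library or under the total without the most abundant gene, 7 without WT replicate 1, 5 in DESeq2 and 11 in a fit of the 4 libraries alone.

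**Figure D4:**
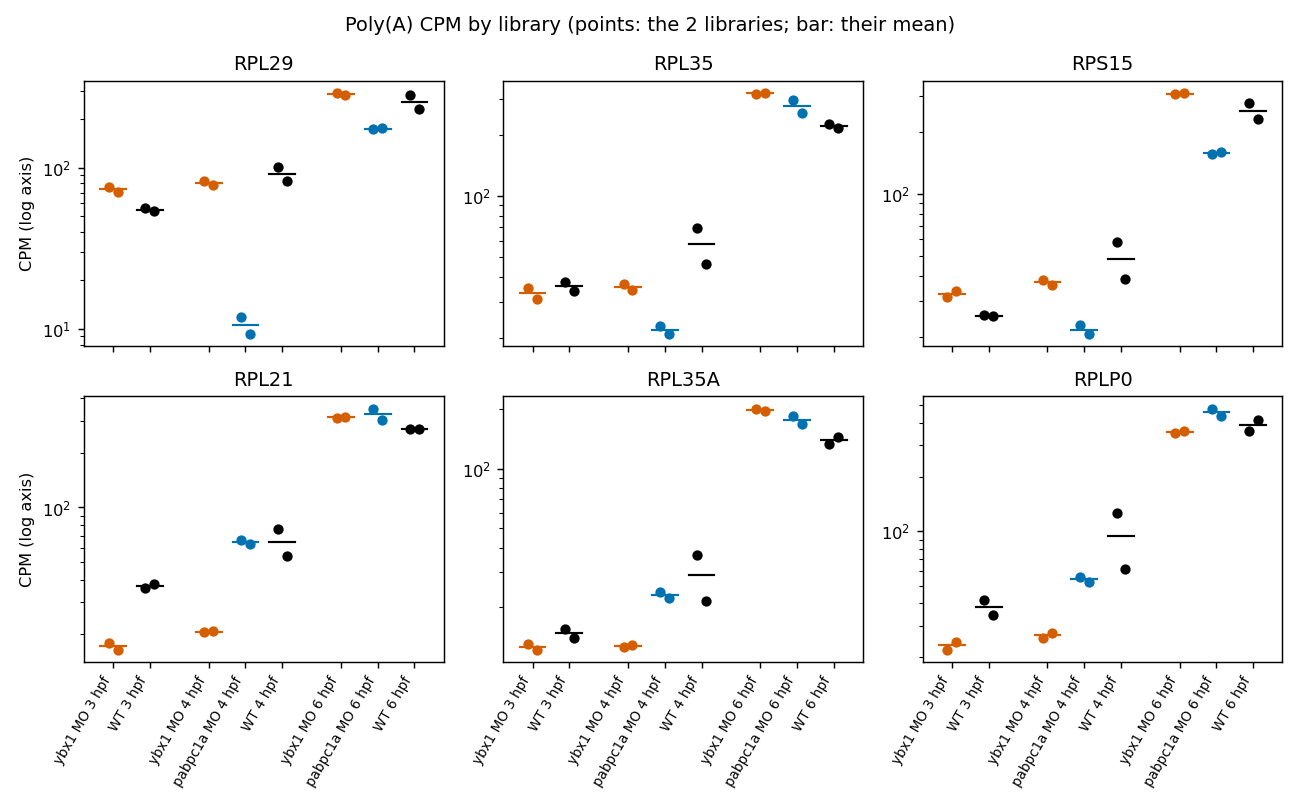
CPM on a log axis (y) of 6 ribosomal protein mRNAs in the poly(A) libraries at 3, 4 and 6 hpf (x), with ybx1 MO in orange, pabpc1a MO in blue and WT in black; points are the 2 libraries of a group and the bar is their mean. RPL29 drops to 11.9 and 9.30 CPM in pabpc1a MO embryos at 4 hpf, and RPL21 to 16.4 to 20.7 CPM in ybx1 MO embryos at 3 and 4 hpf.

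In pabpc1a MO embryos part of the family was called lower than in WT at 4 hpf. Of 69 genes 26 were lower, 1 was higher and 42 were not called. The shares of all genes were 20.8% lower and 13.5% higher, and the median of the members was -0.24. Without WT 4 hpf replicate 1 the median turned to 0.066, with 5 members lower and 10 higher, and a fit of the 4 libraries alone called none lower. Among those that stayed lower were RPL29, RPL35, RPS15 and RPS26 (ENSDARG00000030408). At 6 hpf 8 members were higher and 2 lower, against 4.55% and 4.61% of all genes, and the 2 were RPL29 and RPS15; the median of 0.25 turns to -0.046 under the total without the most abundant gene. The ybx1 MO and pabpc1a MO embryos were set against the same WT libraries.

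RPL29, a small basic protein of the large subunit, lay 2.87 log2 units below the family's median in pabpc1a MO embryos at 4 hpf, with rps11l set aside farther than any other member reported here in any comparison. It had 11.9 and 9.30 CPM in pabpc1a MO embryos at 4 hpf, against 101 and 82.6 CPM in WT, while ybx1 MO embryos had 82.5 and 78.3 CPM. The pabpc1a MO and WT libraries lay far apart, and the ybx1 MO libraries just below WT. The log2 fold change was -3.11 ± 0.14 (SE, edgeR adjusted p = 2.20e-09), and over 11 alternatives it ranged from -3.30 to -2.92 and was called in 10; a fit of the 4 libraries alone gave adjusted p = 0.0692.

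At 6 hpf RPL29 had 174 and 175 CPM in pabpc1a MO embryos, against 283 and 230 CPM in WT, with no overlap (log2 -0.55 ± 0.13, SE, edgeR adjusted p = 0.0118; 7 of 11 alternatives called it). Over 4 to 6 hpf it rose by 4.04 on the log2 scale in pabpc1a MO embryos and by 1.48 in WT, and the difference of 2.56 was called in all 15 alternatives. In ybx1 MO embryos at 3 hpf RPL29 was higher than in WT, at 76.2 and 70.4 CPM against 55.9 and 54.1 CPM. That log2 fold change was 0.42 ± 0.13 (SE, edgeR adjusted p = 0.0376), called in 6 of 11 alternatives.

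RPS15 was lower in pabpc1a MO embryos at both times. It had 23.0 and 20.7 CPM in pabpc1a MO embryos at 4 hpf, against 58.1 and 38.4 CPM in WT, and 157 and 160 CPM at 6 hpf, against 278 and 230 CPM. Neither time overlapped. The log2 fold changes were -1.14 ± 0.15 and -0.68 ± 0.15 (SE, edgeR adjusted p = 5.34e-05 and 0.00821), each called in 10 of 11 alternatives. The exceptions were a fit of the 4 libraries alone at 4 hpf (adjusted p = 0.0724) and the fit without WT 6 hpf replicate 1 (adjusted p = 0.0590). In ybx1 MO embryos RPS15 did not pass the test at any of the 3 times.

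RPL35, at the rim of the peptide exit tunnel, was lower in pabpc1a MO embryos at 4 hpf and not called at 6 hpf. It had 22.8 and 20.8 CPM in pabpc1a MO embryos at 4 hpf, against 69.2 and 46.5 CPM in WT, and 298 and 256 CPM at 6 hpf, against 228 and 218 CPM. The pabpc1a MO libraries were thus below both WT libraries at 4 hpf and above both at 6 hpf, and the change of the effect was 1.72 ± 0.21 (log2, SE, edgeR adjusted p = 0.000106). RPS26 (ENSDARG00000030408), which lines the mRNA exit channel of the small subunit, had 11.1 and 12.2 CPM in pabpc1a MO embryos at 4 hpf, against 35.9 and 18.5 CPM in WT (log2 -1.22, or -0.63 without WT 4 hpf replicate 1). Its effect changed by 1.63 ± 0.30 to 6 hpf (log2, SE, edgeR adjusted p = 0.00169).

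RPL38, a large subunit protein known in the mouse for its part in translating Hox mRNAs, was the only member higher at 4 hpf. Of all genes 13.5% were higher. RPL38 had 83.1 and 75.3 CPM in pabpc1a MO embryos, against 66.0 and 47.7 CPM in WT (log2 0.48 ± 0.17, SE, edgeR adjusted p = 0.0354). Its WT libraries lay farther apart than the higher of them lay from either pabpc1a MO library. Whether its call held under the alternatives is not given. The 8 members higher at 6 hpf were RPS12, RPS28, RPS19, RPS10, rplp2l, RPL5 (ENSDARG00000020197), RPL13A and RPL28, at log2 fold changes of 0.40 to 0.62. No member was called higher in a fit of the 4 libraries alone, under the total without the most abundant gene, or without WT replicate 2 or pabpc1a MO replicate 1, and the count was 5 without either of the other libraries. From 4 to 6 hpf 68 members rose in pabpc1a MO embryos, against 37.1% of all genes, with a median of 2.39, and 22 gained and none lost relative to WT, against 14.1% of all genes that gained. The count of gains was 7 without WT 4 hpf replicate 1, 50 without WT 4 hpf replicate 2, 10 and 11 without pabpc1a MO 4 hpf replicate 2 and 6 hpf replicate 1, 4 in a fit of the compared groups alone, and 5 under the total without the most abundant gene.

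Zygotic marker mRNAs were lower in pabpc1a MO embryos in 6 of 8 at 4 hpf and none of 8 at 6 hpf, and maternal markers were higher in 5 of 6 and 2 of 6. Of all genes, 20.8% and 4.61% were lower and 13.5% and 4.55% higher at these times. The part of these markers in the values of the ribosomal protein mRNAs was not tested.

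In amanitin-treated embryos the ribosomal protein mRNAs changed little to 4 hpf and then rose relative to the other RNAs. Of 68 members tested 30 fell and 6 rose from 2 to 4 hpf, against 16.7% and 15.6% of all 21525 genes, with a median of only -0.09 on the log2 scale. From 4 to 6 hpf 65 rose and 1 fell, against 33.1% and 34.6% of all genes, with a median of 0.94. Scaling by plain totals without the most abundant gene, in place of the trimmed mean of M values, gave 0.44. The median of all genes was then -0.50, and the top gene held at most 2.00% of the counts of these libraries. As a share of counts the family was 0.951% and 0.934% at 2 hpf, 0.879% and 0.874% at 4 hpf, and 1.21% and 1.19% at 6 hpf. At 4 hpf 59 members were higher and 2 lower in WT than in amanitin-treated embryos, against 36.2% and 32.7% of all genes, with a median of 0.39 for WT over amanitin.

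RPL12 rose most, having risen least in the poly(A) libraries. It had 312 and 296 CPM at 2 hpf, 324 and 324 CPM at 4 hpf, and 1324 and 1328 CPM at 6 hpf in amanitin-treated embryos. The step from 4 to 6 hpf was 2.03 ± 0.03 (log2, SE, edgeR adjusted p = 3.09e-22). At 4 hpf it also differed most between the groups, with 324 and 324 CPM in amanitin-treated embryos, against 703 and 730 CPM in WT, a log2 fold change of 1.15 ± 0.03 for WT over amanitin. None of these groups overlapped.

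At the other end stood RPL7 and RPL19, both large subunit proteins. RPL7 had 147 and 141, then 133 and 131, then 137 and 135 CPM at 2, 4 and 6 hpf in amanitin-treated embryos, with a log2 change of 0.04 ± 0.04 at the last step that did not pass. RPL19 had 253 and 250, then 200 and 195, then 212 and 210 CPM, and its rise of 0.10 ± 0.04 passed narrowly (SE, edgeR adjusted p = 0.0369). The rises of RPL19, RPL21 (0.32) and RPLP0 (0.47) turned to -0.40, -0.17 and -0.019 under the total without the most abundant gene, and RPL19 to -0.025 with a filter at 10 CPM.

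RPS2 and rps27.2, both of the small subunit, were the 2 members lower in WT at 4 hpf. RPS2 had 326 and 314 CPM in amanitin-treated embryos, against 259 and 266 CPM in WT (log2 -0.28 ± 0.04 for WT over amanitin, SE, edgeR adjusted p = 1.02e-06), and the groups did not overlap. For rps27.2 it was 63.0 and 58.2 CPM in amanitin-treated embryos, against 56.5 and 54.2 CPM in WT (log2 -0.13 ± 0.05), called in 6 of 11 alternatives. Its paralog rps27.1 went the other way, with 63.2 and 60.7 CPM in amanitin-treated embryos, against 94.9 and 103 CPM in WT. RPL29 and RPS15 kept to the family here, with steps from 4 to 6 hpf of 1.17 and 1.18.

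**Figure D5:**
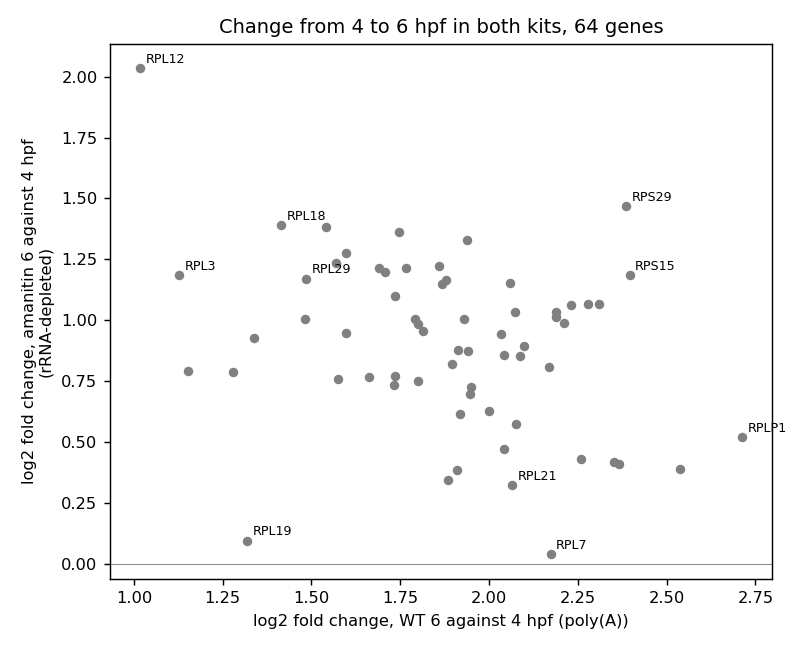
Log2 fold change from 4 to 6 hpf of 64 ribosomal protein genes in WT poly(A) libraries (x axis) and in amanitin-treated, rRNA-depleted libraries (y axis); each point is a gene and 10 are named. RPL12 has the highest value in the amanitin series (2.03) and a low one in WT (1.02), while RPLP1 has the highest value in WT (2.71).

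Of the 68 members tested in both kits, 65 were called higher at 6 than at 4 hpf both in WT poly(A) RNA and in the amanitin series. Of all genes tested, 27.9% were called higher in the first and 33.1% in the second. The share of all genes called in both is not given. The sizes of the members' rises were not alike. Pearson's r between the changes was 0.03 across all 68 members and -0.34 across the 64 drawn, as a description, so its value rests on which genes are taken. The 2 changes share no library, but treatment and kit differ together and cannot be told apart. At WT 4 hpf, the group sequenced with both kits, the members' CPM was lower with poly(A) selection than with rRNA depletion in 65 of 68, by a median log2 ratio of -0.75, where all 20571 genes tested in both had a median of -0.50 and 80% of them were lower.

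The paired IDs did not always move alike. RPL5, which with RPL11 carries the smallest large-subunit rRNA into the ribosome and binds Mdm2, has one ID (ENSDARG00000015862) that rose by 1.15 on the log2 scale from 4 to 6 hpf in WT, at 512 and 576 CPM, against 261 and 228 CPM, and another (ENSDARG00000020197) that rose by 2.21, at 167 and 168 CPM, against 43.2 and 29.1 CPM. RPL11 rose by 1.54. For RPS26 the values were 2.54 for ENSDARG00000030408 and 1.75 for ENSDARG00000037071 in WT, but 0.39 and 1.36 in the amanitin series. The sources used here do not say how reads that match both members of a pair were counted, which makes the split within a pair uncertain.

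The member rps11l had at most 14 reads in a poly(A) library and at most 6 in an rRNA-depleted one, and no fold change is given for it.

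Genes of the ribosome outside the symbol rule were set beside the family. RPL36AL, RPS4Y2 and RPSA2, added after their values were seen, encode ribosomal proteins under symbols that the rule does not match, and 3 of 3 fell from 0 to 2 hpf and rose at the steps to 4 and to 6 hpf. Of these, RPSA2 and RPS4Y2 were lower at 4 hpf in ybx1 MO embryos (-1.37 and -1.04) and in pabpc1a MO embryos (-1.02 and -0.66). Of 8 related genes, 7 rose from 4 to 6 hpf in WT. In pabpc1a MO embryos at 4 hpf 2 of the 8 were lower than in WT and 2 higher, with a median of -0.15. The shares of all genes were 20.8% lower and 13.5% higher. Among those lower was RACK1, a scaffold on the small subunit, at -1.67. Of 14 other genes whose mRNAs are known in mammals for a terminal oligopyrimidine tract, such as translation elongation factors, 12 fell and 1 rose from 0 to 2 hpf (median -0.92), 11 rose and 1 fell from 4 to 6 hpf in WT (median 1.46), and 13 rose and 1 fell in the amanitin series (median 0.89). For comparison, 16.8% of all genes fell and 17.6% rose from 0 to 2 hpf, 27.9% rose and 31.8% fell from 4 to 6 hpf in WT, and 33.1% rose and 34.6% fell over that step in the amanitin series. The 35 ribosome assembly factors had 9 lower and 16 higher from 0 to 2 hpf (median 0.29), 25 higher and 2 lower from 4 to 6 hpf in WT (median 1.12), and 15 higher and 16 lower in the amanitin series (median -0.11).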

How the data were processed

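RNA of whole embryos was sequenced as 125 bp read pairs. Each deposited file gives whole-number counts by Ensembl gene; per the submitters' processing notes, TopHat2 2.1.1 and HTSeq 0.6.0 were used. Build and annotation: not given in the sources used here. No positions or sequences are therefore reported. Lines that name no gene were left out of totals. They stand in 14 files, those of the ybx1 MO and the rRNA-depleted libraries. Files of the WT and pabpc1a MO poly(A) libraries do not hold them. Reads in no feature were 7.22% to 18.5% in the ybx1 MO files and 8.08% to 17.9% in the rRNA-depleted ones. Whether the files that lack these lines were made in another way was not tested. Gene symbols come from a reference table matched by Ensembl ID.

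Poly(A) and rRNA-depleted libraries were fitted separately (edgeR 4.0.16, limma 3.58.1, R 4.3.3): genes kept by filterByExpr (22377 and 21525), scaling by trimmed mean of M values, and the robust quasi-likelihood test over all groups of a kit (10 and 4 residual degrees of freedom), with Benjamini-Hochberg adjustment over all genes tested and a threshold of 0.05. CPM uses the scaled library totals. The scripts were tested on simulated data. Alternatives included DESeq2 1.42.0, other scalings and filters, a replicate block, a fit of the compared groups alone and each library left out.

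The members, gene lists and tests were chosen with earlier results of these data known. By rule every member could be named, with full values for the 5 farthest from the members' median in a comparison, for RPL29, RPL21, RPS15, the stalk genes and RPSA, and, over all groups, for the 5 with the lowest correlation with the common course in each kit, RPS6, RPL5, RPL11 and paralogs; of list genes, up to 3 by smallest adjusted p in a comparison. RPL9 was picked as a typical member after its values were seen. Some members and list genes enter the counts and medians but are not reported here.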

Additional observations from a re-analysis of the deposited data

Results flagged for a closer look

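The effect of the ybx1 MO is taken as ybx1 MO over WT. By a test of its difference between 4 and 3 hpf, it differed in 8 of 69 ribosomal protein genes, against 2.05% of all genes. The changes were -1.22 for RPLP1 and -1.12 for RPS6 (log2). The count was 65 without WT 4 hpf replicate 2, 0 to 5 without any other library, 0 in a fit of the compared groups alone and 35 in DESeq2.

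Between 6 and 4 hpf the ybx1 MO effect differed in 41 of 69 genes by the same test (33 to 57 with 1 library left out), with changes of 1.86 for RPL21, 1.71 for RPL35A, 1.70 for RPLP0, 1.17 for RPLP1 and 0.66 for RPS15.

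The pabpc1a MO effect differed between 6 and 4 hpf in 22 of 69 genes (7 without WT 4 hpf replicate 1, 50 without replicate 2), with changes of 2.56 for RPL29, 1.72 for RPL35, 1.63 for RPS26 (ENSDARG00000030408) and 1.04 for RPLP0. The RPS15 change given above, that of the ybx1 MO effect, was called in 7 of its 15 alternatives. That of RPLP0 in pabpc1a MO embryos was called in 8 of 15. The change of the pabpc1a MO effect on RPS15 was not called (log2 0.46, edgeR adjusted p = 0.115). Of all genes, 26.4% differed by the test of the ybx1 MO effect between 6 and 4 hpf. For the pabpc1a MO effect it was 22.8%.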

How the results depend on the processing

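Of 210 counts of members called under an alternative, 154 were within 1.5 times the reported count. The shares of all genes called under the alternatives are not given. A moved count can therefore go with a change in the calls over all genes. Of 1140 values of single genes called in the reported fit, 1032 kept their direction and call. Over all 2041 values 1866 kept their call, with direction not compared where neither fit called the gene. Fitting only the groups compared gave 42 lower at WT 3 against 2 hpf, 0 higher at WT 4 against 3 hpf, 20, 5 (lower) and 11 for ybx1 MO at 3, 4 and 6 hpf, 0 lower and 0 higher for pabpc1a MO at 4 and 6 hpf, 4 for ybx1 MO 4 against 3 hpf, and 0 and 4 for the changes of the ybx1 MO effect to 4 hpf and of the pabpc1a MO effect to 6 hpf. Scaling by the total without the most abundant gene, an alternative added after the data were seen, used no trimmed mean of M values. It took plain totals and moved the median of all genes by up to 0.67 (log2, to -0.67 for ybx1 MO 6 against 4 hpf). It gave 2 and 0 for ybx1 MO at 3 and 6 hpf, 0 for pabpc1a MO at 6 hpf, and 2, 25 and 5 for the ybx1 MO changes to 4 and 6 hpf and the pabpc1a MO change. It also turned the medians of ybx1 MO at 3 hpf (-0.0043) and 6 hpf (-0.091) and of pabpc1a MO at 6 hpf (-0.046), and in the amanitin step to 6 hpf RPL7 (-0.45), RPL19 (-0.40), RPL21 (-0.17) and RPLP0 (-0.019). A filter at 10 CPM turned RPL7 (-0.081) and RPL19 (-0.025) there, and called 6 at WT 3 against 2 hpf and 25 for the ybx1 MO change to 4 hpf. With no filter the first was 3, and ybx1 MO 4 against 3 hpf had 1. DESeq2 gave 4 at WT 3 against 2 hpf, 5 for ybx1 MO at 6 hpf and 35 for the ybx1 MO change to 4 hpf. The cause of these changes was not tested.

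With a replicate block, ybx1 MO at 6 hpf had 5 members called and the ybx1 MO change to 4 hpf had 13, and no other count moved by over 1.5 times. Same-numbered libraries deviated together weakly at most. The r was -0.12 to 0.20 over 45 pairs of poly(A) groups and -0.02 to 0.02 over 6 rRNA-depleted ones. Such values cannot exclude a batch shared by number, and the reported fit does not pair libraries.

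Leaving out 1 library at a time gave 0 to 1 lower at WT 3 against 2 hpf, 0 to 3 higher for ybx1 MO at 3 hpf, 23 to 55 lower at 4 hpf and 0 to 7 higher at 6 hpf, 5 to 47 lower for pabpc1a MO at 4 hpf and 0 to 5 higher at 6 hpf, 0 to 65 for the ybx1 MO change to 4 hpf, and 7 to 50 for the pabpc1a MO change. A group left with 1 library is assumed to vary like the others. Without WT 4 hpf replicate 1 the pabpc1a MO median at 4 hpf was 0.066. The comparisons at 4 hpf are thus limited by that pair, and rps11l by its counts.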

Other observations

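RNA polymerase I, which transcribes the large rRNA precursor, and its initiation factors had 6 measured genes. In the amanitin series 5 of them fell and 1 rose from 4 to 6 hpf, with a median of -2.56 (log2), while 65 of 68 ribosomal protein genes rose. In WT poly(A) libraries over the same hours 5 of the 6 rose and 1 fell, with a median of 0.75. Of 7 genes of the mTOR pathway, which sets the translation of ribosomal protein mRNAs, 6 rose and 1 fell in the amanitin series (median 0.80), and 1 rose and 4 fell in WT (median -0.66). The 7 genes have unlike parts in the pathway, so these counts give no direction for its activity. Of all genes tested, 33.1% rose and 34.6% fell over this step in the amanitin series, and 27.9% rose and 31.8% fell in WT. For both sets of genes, treatment and kit differ together between the amanitin series and WT and cannot be told apart.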
